A study of Mus musculus with 9 samples.

Results

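The genes of 8 myeloid proteins, Mpo, Elane, Prtn3, Ctsg, Lyz2, Ltf, Ms4a3 and Ly86, were followed in ATAC-seq peak lists of mouse blood stem and progenitor cells. ATAC-seq cuts DNA with the Tn5 transposase where chromatin is open, and a peak marks a stretch with many cuts. The genes were chosen by name as granule protein and early myeloid genes. Peaks that overlapped were joined into regions, and a region was given to the gene that held its midpoint, or else to the nearest end of a protein-coding gene within 100 kb. Of 95786 regions with a peak in 2 or more libraries, 54 belonged to the 8 genes, which were themselves 8 of 20665 protein-coding genes.

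Multipotent progenitors (MPPs) and long-term haematopoietic stem cells (LT-HSCs) had been sorted from bone marrow of C57BL/6 mice that were RXRα/RXRβ-KO or wild type. RXRα and RXRβ are retinoid X receptors, nuclear receptors that bind DNA as partners of the retinoic acid, liver X and other receptors. There were 9 libraries: MPP KO 1 and 2, MPP WT 1 and 2, LT-HSC KO 1, 2 and 4, and LT-HSC WT 2 and 3. Animals were pooled and lineage-negative cells enriched before the sort. The labels name neither the sort markers, the age of the mice nor the driver of the deletion. They do not say that replicates were separate pools, so a p-value speaks of the variation among the libraries at hand, some of which may be technical.

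The MPP lists held 78189 to 86353 peaks and the LT-HSC lists 22690 to 71586, and the reads behind each list are unknown. LT-HSC KO 1 and LT-HSC WT 3 had the shortest lists, of 22690 and 22878 peaks, and LT-HSC KO 4 the longest LT-HSC list. A short list holds fewer regions of any kind, and in sorted cells fewer open cells cannot be told apart from less open chromatin per cell.

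The azurophil granule, the first granule type made as a neutrophil matures, stores myeloperoxidase and the serine proteases neutrophil elastase, proteinase 3 and cathepsin G. Lactoferrin belongs to the specific granules made later, and lysozyme M is shared by granulocytes and macrophages. These genes are copied mainly in promyelocytes and later cells, downstream of the cells sorted here, and low transcription of myeloid genes in progenitors is called lineage priming. PU.1 (an ETS factor), C/EBP, MYB and RUNX factors are known regulators of granule genes.

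Start-site regions are compared below between cell types and genotypes, so the 250 bases before the start of 5 genes are shown. They come from RefSeq on GRCm38.p6, the assembly of mm10, and run 5′ to 3′ on the strand of the gene. Capitals mark GGAAGT, a core bound by PU.1 and other ETS factors, and AGGTCA, the core bound by nuclear receptors such as the RXRs.
Mpo: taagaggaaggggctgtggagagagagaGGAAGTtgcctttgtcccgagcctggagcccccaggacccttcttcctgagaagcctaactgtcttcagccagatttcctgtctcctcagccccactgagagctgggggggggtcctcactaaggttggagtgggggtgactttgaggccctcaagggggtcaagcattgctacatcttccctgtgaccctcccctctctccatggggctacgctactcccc
Elane: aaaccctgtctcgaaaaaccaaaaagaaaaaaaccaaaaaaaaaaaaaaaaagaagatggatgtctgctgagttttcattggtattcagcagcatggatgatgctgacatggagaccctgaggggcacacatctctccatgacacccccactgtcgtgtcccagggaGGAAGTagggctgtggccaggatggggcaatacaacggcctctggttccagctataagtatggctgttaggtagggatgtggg
Ctsg: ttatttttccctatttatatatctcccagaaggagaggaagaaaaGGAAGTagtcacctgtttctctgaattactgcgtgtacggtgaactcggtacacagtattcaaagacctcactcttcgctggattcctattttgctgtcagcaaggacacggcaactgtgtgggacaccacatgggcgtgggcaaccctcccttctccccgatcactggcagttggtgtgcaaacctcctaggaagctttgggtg
Ms4a3: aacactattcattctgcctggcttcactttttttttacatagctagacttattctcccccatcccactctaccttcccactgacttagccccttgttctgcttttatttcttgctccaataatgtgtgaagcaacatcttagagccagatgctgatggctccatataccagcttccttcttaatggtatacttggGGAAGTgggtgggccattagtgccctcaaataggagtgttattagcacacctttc
Ltf: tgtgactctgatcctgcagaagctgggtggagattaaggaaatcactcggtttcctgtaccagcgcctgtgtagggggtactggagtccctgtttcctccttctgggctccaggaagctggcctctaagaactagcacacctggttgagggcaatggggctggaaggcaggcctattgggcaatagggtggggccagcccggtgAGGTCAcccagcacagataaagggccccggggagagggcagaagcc
The Mpo stretch is chr11:87793534-87793783 on the plus strand. Elane gives chr10:79886062-79886311, also on the plus strand. Ctsg gives chr14:56102575-56102824 and Ms4a3 gives chr19:11640852-11641101, both on the minus strand. The Ltf stretch is chr9:111019042-111019291 on the plus strand.

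GGAAGT, read on both strands, was found in 6 of the 8 promoters (Mpo, Elane, Prtn3, Ctsg, Lyz2 and Ms4a3), against 20.7% of 16457 promoters of the same length. In Mpo it lay at bases -222 to -217 from the start, and the summits of the Mpo start-site peak were at -280, -214, -218 and -217 in the MPP libraries. The Elane match, at -83 to -78, lay beside summits at -60, -70, -85 and -60. In Ms4a3 the match was at -55 to -50 and the summits at -96 to -108. The Ctsg match, at -205 to -200, straddled the edge of the region with a peak, whose summits were within 24 bases of the start.
TTNNGNAA, a C/EBP motif, was found in 3 promoters (Lyz2, Ltf, Ms4a3; 34.2% of all), and AACNG, a MYB motif, in 7 (all but Ms4a3; 72.7% of all). TGTGGT, a RUNX motif, was in 2 (Ctsg and Lyz2; 12.2% of all), and CACGTG, the E-box of MYC, in 0 (6.71% of all). AGGTCA was found in the Ltf promoter alone among the 8 (12.6% of all), at -46 to -41. The TTNNGNAA match of Ms4a3, at -59 to -52, overlapped its GGAAGT match. These motifs were chosen with the sequences in view, and a match shows the letters only.

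The regions of the 8 genes were open in nearly every MPP library and in few LT-HSC libraries. MPP KO 1 held 48 of the 54 regions, and MPP KO 2, MPP WT 1 and MPP WT 2 held 51 each. LT-HSC KO 1, 2 and 4 held 6, 9 and 27, and LT-HSC WT 2 and 3 held 19 and 10. The cell types did not overlap. The share held averaged 93.1% ± 2.78 in MPPs (SD, n = 4) and 26.3% ± 16.0 in LT-HSCs (SD, n = 5), a difference of 66.8 percentage points. Of all analysed regions, MPPs held 81.5% and LT-HSCs 40.5%, which differ by 41.0 points. Without LT-HSC KO 4, which held 7 of the regions as the only LT-HSC library, the difference was 72.7 points for the 8 genes and 47.3 for all regions.

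Long lists hold more of any set of regions, so the share was also set beside all regions with the same number of holders. For each of the 54 regions the expected value is the share of such regions that the library holds. The 4 MPP libraries held 6.18 to 11.5 points more of the granule and priming regions than expected. Held minus expected was -4.64, -15.0 and -8.90 points in LT-HSC KO 1, 2 and 4, -7.78 points in LT-HSC WT 2 and 3.35 points in LT-HSC WT 3. By construction these differences balance out over all libraries. The surplus in MPPs and the deficit in LT-HSCs are therefore the same result.

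**Figure D1:**
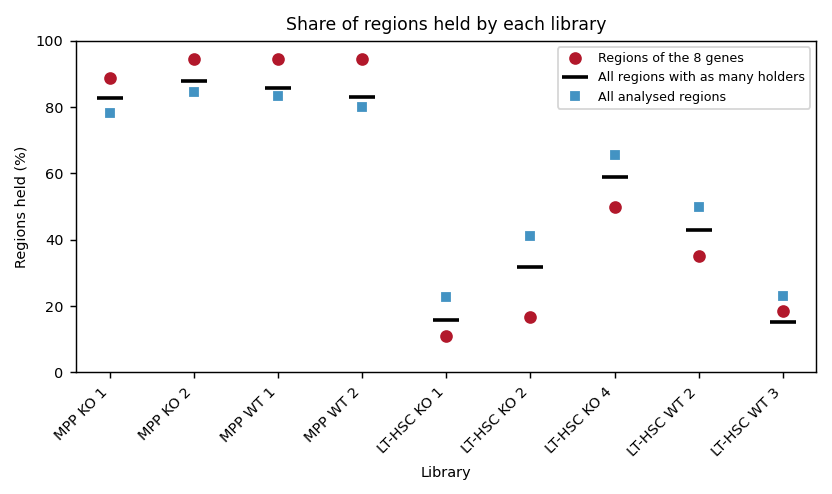
Share of regions held (%, vertical axis) by each of the 9 libraries. Circles are the 54 regions of the 8 genes, squares all 95786 analysed regions, and bars all regions with as many holders. In the 4 MPP libraries the circles lie above both, and in LT-HSC KO 1, 2 and 4 and LT-HSC WT 2 below both.

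Region by region, 20 of the 54 had a peak in all 4 MPP libraries and in none of the 5 LT-HSC libraries, called MPP-only here (37.0%, against 17.3% of all analysed regions), and 0 showed the opposite. Fisher's exact test over regions held by 3 to 6 libraries gave each of the 20 a two-sided p of 0.00794, the smallest it can give, and an adjusted p of 0.0245. They were 20 of 36 regions tested (55.6%), against 31.9% called higher in MPPs and 0.442% called higher in LT-HSCs over all tested regions. Ly86 had 9 of the 20, Ctsg 4, Ltf 3, Prtn3 2, Elane 1 and Ms4a3 1, while Mpo and Lyz2 had 0. Of the other regions, 5 were held by all 9 libraries, 4 at Ly86 and 1 at Ltf. No analysed region lacked a peak in every MPP library, and 27 lacked one in every LT-HSC library. The filter shapes these counts, since regions held by 1 library were left out, 4 of them in LT-HSC KO 4. With such regions kept, the difference in share held was 58.5 points in place of 66.8. Without LT-HSC KO 4 the count was 26 of 26 tested, against 89.5% of all regions then tested.

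**Figure D2:**
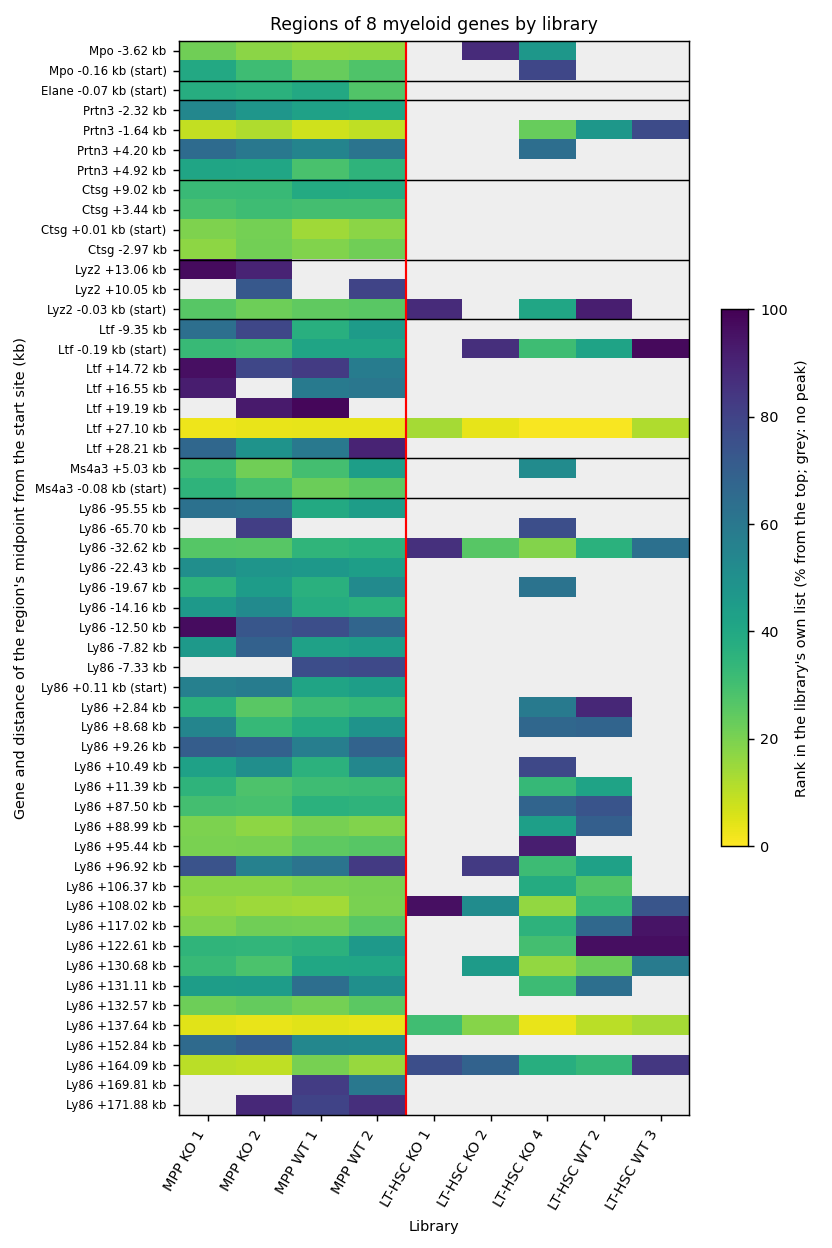
Each row is 1 of the 54 regions, named by its gene and the distance of its midpoint from the start site (kb), and each column a library, with MPPs left of the red line. Colour gives the place of the peak in the library's own list (% from the top, yellow strongest) and grey no peak. The 4 Ctsg rows and the Elane row are grey in all 5 LT-HSC libraries, and the Ltf row at +27.10 kb is yellow to light green in all 9.

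Per gene, the number of regions with a peak was compared by a two-sided exact permutation test over all ways of labelling the libraries. Of the 5 genes with at least 3 regions, Prtn3, Ctsg and Ltf reached an exact permutation p of 0.00794, the smallest possible (adjusted p = 0.0312), and Ly86 one of 0.0159 (adjusted p = 0.0390). Lyz2 did not pass (p = 0.0317, adjusted p = 0.0575, exact permutation test). The 4 genes called are to be read beside 50.9% of all 10289 genes tested called higher in MPPs. The gene test has no reserve, since leaving out any library but LT-HSC KO 4 left 0 members and 0% of all genes called.

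The start sites were set beside those of all genes. A window of 250 bases before to 50 after the start was MPP-only at Elane, Ctsg, Ms4a3 and Ly86, 4 of the 8 genes, against 1.42% of 16457 genes. Windows held by all 9 libraries were common in general (39.4% of genes), and none of the 8 genes had one. Ranks by the deposited −log10 q-value, where rank 1 is the strongest peak of a list, place these sites within each library. Ranks from lists of different lengths are not comparable, so where LT-HSC libraries hold a region its place is given as the percentage of the list from the top. That percentage depends on list length too. A place near the end of a short list can go with a rank like those in MPPs.

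Mpo encodes myeloperoxidase, the enzyme that makes hypochlorous acid. Its start-site region (chr11:87793254-87793999) was held by the 4 MPP libraries and LT-HSC KO 4, with ranks of 31006 and 26857 in MPP KO 1 and 2 and 19891 and 22030 in MPP WT 1 and 2. Its place was 39.7% and 31.1% from the top in MPP KO, 23.3% and 27.4% in MPP WT, and 78.5% in LT-HSC KO 4. It missed the threshold between cell types (Fisher's exact p = 0.0476, adjusted p = 0.0786). A region at -3.62 kb (chr11:87789836-87790491) was 21.5% and 17.5% from the top in MPP KO, 15.1% and 15.5% in MPP WT, and 87.6% and 47.2% in LT-HSC KO 2 and 4. Both midpoints lie upstream of the gene, and the start-site region reaches into it. The next gene downstream, Lpo (lactoperoxidase), lies 2.02 kb from the end of Mpo and had 2 MPP-only regions among 5.

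Elane (neutrophil elastase) and Prtn3 (proteinase 3) lie 3.14 kb apart on chromosome 10. Elane had 1 region, at its start (chr10:79886086-79886406), with ranks of 29567 and 31164 in MPP KO, 33994 and 21762 in MPP WT, and no peak in any LT-HSC library. Prtn3 had no peak over its start window in any library, and its 4 regions flank the gene. The strongest, at -1.64 kb (chr10:79877725-79878333), ranked 7226 and 10360 in MPP KO and 6103 and 7634 in MPP WT, which is 7.14% to 12.0% from the top. It was also held by LT-HSC KO 4, WT 2 and WT 3, at 23.2%, 46.9% and 77.1% from the top. MPP-only regions lay at -2.32 kb (chr10:79877208-79877492) and +4.92 kb (chr10:79884312-79884873). The region at +4.92 kb and another at +4.20 kb lie between the genes, closer to the end of Prtn3 than to the start of Elane, so the rule gives both to Prtn3.

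Ctsg (cathepsin G, a serine protease) was the one gene with several regions that were all MPP-only. MPP libraries held 4 of 4 and LT-HSC libraries 0 of 4. The start-site region (chr14:56102361-56102775, over the start and the first bases of the gene) ranked 15199 and 18123 in MPP KO and 12267 and 13879 in MPP WT. A region at -2.97 kb (chr14:56105086-56106008) ranked 13296 and 18473 in MPP KO and 16063 and 17305 in MPP WT. The other 2 lay 3.44 and 9.02 kb past the start, beyond the gene. Of the neighbouring granule protease genes, Mcpt8 had 2 regions, 1 of them MPP-only, and Gzme had 0.

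Lyz2 encodes lysozyme M, which splits bacterial cell walls. Its start-site region (chr10:117282029-117282583) was held by the 4 MPP libraries and 3 of the 5 LT-HSC libraries. It was 26.0% and 22.0% from the top in MPP KO, 24.6% and 25.7% in MPP WT, and 87.5%, 40.9% and 91.8% in LT-HSC KO 1, KO 4 and WT 2. The ranks were 19860, 29280 and 45905 in these LT-HSC libraries, against 19005 to 21027 in MPPs. Its 2 downstream regions were each held by 2 MPP libraries and no LT-HSC library. Lyz1, the near-identical neighbour 5.52 kb away, had 3 regions, 2 of them MPP-only. The sources used here do not say how reads shared by the pair were placed, so values of either gene are uncertain.

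Ltf (lactoferrin, an iron-binding protein of the specific granules) was open at its start in both cell types. The start-site region (chr9:111018824-111019373) had a peak in every library but LT-HSC KO 1. It was 32.7% and 31.1% from the top in MPP KO, 41.6% and 41.5% in MPP WT, 86.4% and 31.0% in LT-HSC KO 2 and 4, and 41.9% and 97.7% in LT-HSC WT 2 and 3. Places in LT-HSC KO 4 and WT 2 were thus close to those in MPPs, and LT-HSC KO 2 and WT 3 had it near the end of their lists. By rank it stood at 37248 and 22164 in LT-HSC KO 2 and 4, and at 20958 and 22341 in LT-HSC WT 2 and 3. MPP ranks were 25589 to 35533, but ranks from lists of such different lengths do not compare peak strength. Deposited fold enrichments were 12.8 to 16.5 in the MPP libraries. They were 5.05 and 12.97 in LT-HSC KO 2 and 4, and 9.30 and 3.93 in LT-HSC WT 2 and 3. The fold was thus below every MPP library in LT-HSC KO 2, WT 2 and WT 3, and within the MPP range in LT-HSC KO 4. The difference in fold was not tested. A region at +27.1 kb (chr9:111046155-111046632), 3627 bp beyond the end of the gene, was held by all 9 libraries. It was 2.63% and 3.21% from the top in MPP KO, 3.55% and 3.85% in MPP WT, 13.5%, 3.71% and 0.939% in LT-HSC KO, and 1.07% and 11.7% in LT-HSC WT. The other 5 regions had no LT-HSC peak, and 3 of them were MPP-only. The better ranked of these were at -9.35 kb (chr9:111009745-111010131, ranks 31484 to 68055) and +28.2 kb (chr9:111047343-111047670, ranks 41867 to 72350).

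Ms4a3, a membrane protein gene used as a marker of granulocyte and monocyte progenitors, had an MPP-only start-site region (chr19:11640684-11641187). Ranks were 27427 and 25319 in MPP KO and 19346 and 20188 in MPP WT, with deposited fold enrichments of 15.0, 16.9, 19.9 and 17.8 in the same order. A region inside the gene, at +5.03 kb (chr19:11635632-11636018), was held by the 4 MPP libraries and LT-HSC KO 4, at 30.9% and 21.8% from the top in MPP KO, 30.0% and 43.9% in MPP WT and 51.7% in LT-HSC KO 4.

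Ly86 (MD-1, the partner of the receptor CD180) had 31 regions, and its nearest genes lie 295 kb (F13a1) and 359 kb (Rreb1) away. MPP KO held 27 and 29 and MPP WT 30 and 30. LT-HSC KO held 4, 6 and 19 and LT-HSC WT 15 and 7. The start-site region (chr13:37345159-37345751) was MPP-only, with ranks of 44243 and 50062 in MPP KO and 35620 and 35337 in MPP WT. The strongest region, 138 kb past the start (chr13:37482532-37483446), was held by all 9 libraries, at 4.36% and 3.48% from the top in MPP KO, 4.38% and 3.87% in MPP WT, 30.8%, 18.01% and 3.28% in LT-HSC KO, and 10.4% and 13.5% in LT-HSC WT. MPP-only regions by best rank were at +133 kb (chr13:37477739-37478084, ranks 17408 to 20424) and -14.2 kb (chr13:37330995-37331368, ranks 29017 to 44913). Without Ly86 the other 7 genes held 92.4% of their regions in MPPs and 17.4% in LT-HSCs on average.

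**Figure D3:**
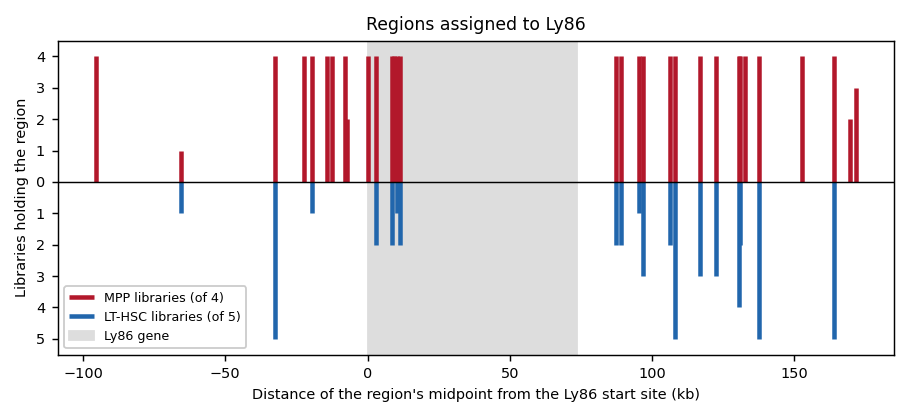
Number of libraries with a peak in each of the 31 Ly86 regions, by distance of the midpoint from the start site (kb). Red bars upward are MPP libraries (of 4), blue bars downward LT-HSC libraries (of 5), and the grey band the gene. Blue bars of 5 stand at -32.62, +108.02, +137.64 and +164.09 kb, and there is no blue bar at the start site.

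Cut to equal length, the 22690 strongest peaks of each library, the lists showed a smaller contrast. MPP libraries kept 15, 17, 16 and 17 of the 54 regions (KO 1 and 2, then WT 1 and 2), and LT-HSC libraries 6, 5, 10, 10 and 10 (KO 1, 2 and 4, then WT 2 and 3). The cell types still did not overlap, while over all analysed regions the shares were 23.5% to 23.6% in MPPs and 22.7% to 23.5% in LT-HSCs. When the cut lists were merged anew, 6 of 12 tested regions were called higher in MPPs (Fisher's exact p = 0.00794, adjusted p = 0.0248), against 21.1% of all, and 0 higher in LT-HSCs, against 10.9% of all. The 6 were the Mpo region at -3.62 kb, the Ctsg regions at the start and at -2.97 kb, and Ly86 regions at +88.96, +95.44 and +132.57 kb. Some regions leaned to LT-HSCs without being called. The Ly86 region at +130.68 kb was held by 0 MPP and 4 LT-HSC libraries (Fisher's exact p = 0.0476, adjusted p = 0.0825). The Ltf start-site region was held by 0 and 3, and Ly86 regions at +96.94 and +122.62 kb by 0 and 2. Leaning to MPPs at the same p, the Lyz2 start-site region and Ly86 regions at +106.37 and +117.02 kb were held by 4 and 1. The cut keeps all of the LT-HSC KO 1 list and nearly all of the LT-HSC WT 3 list, so weak peaks of these libraries count among their strongest. The Ms4a3 and Mpo start sites were among them in MPP WT 1 and 2 and in no other library.

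Among regions held by all 9 libraries and ranked anew within these 13908, the Ly86 region at +164.09 kb (chr13:37509003-37509870) was stronger in every MPP than in every LT-HSC library. Its ranks were 7025 and 7057 in MPP KO and 10477 and 8866 in MPP WT, against 12020, 13470 and 13267 in LT-HSC KO and 11933 and 12922 in LT-HSC WT. Of all such regions 16.1% were stronger and 15% weaker in every MPP library. The other 4 regions overlapped between cell types.

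Between KO and WT no difference in the number of regions held was detectable. The share averaged 91.7% in MPP KO and 94.4% in MPP WT, 2.78 points lower in KO. In LT-HSCs it was 25.9% in KO and 26.9% in WT, within a KO range of 11.1% to 50.0%. By the exact permutation test within cell types, which has 60 labellings and a smallest p of 0.0167, 0 of the 5 tested genes had an unadjusted p under 0.05 (0.525% of all genes did), and the lowest p was 0.333, at Lyz2. None of the 54 regions could reach that level in the region test (2.49% of the 1565 regions that could did).

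Peak strength in MPPs was then compared by rank, with no test, among the 64003 regions held by all 4 MPP libraries. Of the 46 granule and priming regions among them, 13 ranked lower in both KO than in both WT libraries (28.3%), 13 ranked higher (28.3%), and 20 overlapped. Over all 64003 regions, 23.2% ranked lower and 23.9% higher, so the shares at the 8 genes were near the background. Start-site regions ranked lower in both KO libraries at 4 of 7 genes, higher at 2 and overlapped at 1. The same shares over the start sites of all genes were not computed, so these counts have no background beside them. At Mpo the ranks were 30693 and 26650 in KO against 19776 and 21943 in WT, and at Ms4a3 27179 and 25136 in KO against 19238 and 20110 in WT. At Ctsg they were 15138 and 18026 in KO against 12238 and 13853 in WT, and at Ly86 43358 and 48465 in KO against 35227 and 35053 in WT. Lyz2 and Ltf ranked higher in KO, with 25373 and 26624 in KO against 35144 and 33138 in WT at Ltf, and at Elane the genotypes overlapped.

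**Figure D4:**
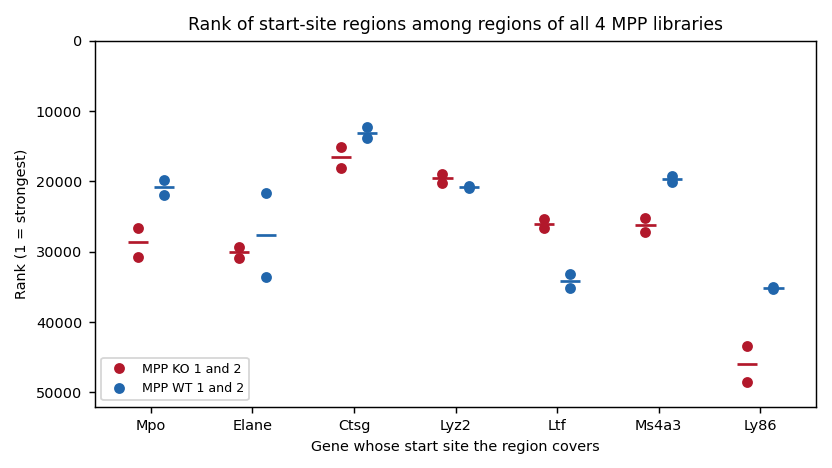
Rank of the start-site regions of 7 genes among the 64003 regions held by all 4 MPP libraries (vertical axis, strongest at the top). Red points are MPP KO 1 and 2, blue points MPP WT 1 and 2, and lines their means. KO lies below WT at Mpo, Ctsg, Ms4a3 and Ly86, above it at Lyz2 and Ltf, and overlaps it at Elane.

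Away from the start sites, the Mpo region at -3.62 kb and 3 of the 4 Prtn3 regions ranked lower in both KO libraries. Ctsg at +9.02 kb, Ms4a3 at +5.03 kb and Ltf at +27.1 kb ranked higher in both. At Ms4a3 these ranks were 23967 and 18761 in KO against 25443 and 35062 in WT. Ctsg and Ms4a3 thus had 1 region of each direction. Over all 64003 regions 23.2% ranked lower and 23.9% higher in both KO libraries. How often other genes have regions of both directions was not counted. Among the 13 regions that ranked lower, the difference in mean rank was largest at the Ltf region at -9.35 kb, with ranks of 48088 and 59487 in KO against 31193 and 35886 in WT. The Ly86 regions were also counted by side, with no test and no such count over other genes beside it. Of 13 regions upstream of its start or inside the gene, 4 ranked lower and 1 higher in both KO libraries, whereas of 14 beyond its far end 1 ranked lower and 7 higher. The region at +164.09 kb ranked 8218 and 8233 in KO against 17603 and 12297 in WT. In LT-HSCs only 5 of the regions were held by all 5 libraries, and at each of them the genotypes overlapped among 14498 regions.

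Other granule and myeloid genes also had MPP-only regions. Of 11 other azurophil granule genes, 10 had regions, and 13 of their 52 regions were MPP-only (25.0%), with 5 at Ctsc (cathepsin C, which activates the granule proteases) and 2 each at Cst7 and Lyz1. Later granule genes had 16 MPP-only regions of 33 (48.5%), among them 2 each at Chil3, Fcnb and Hp. Early myeloid genes had 40 of 130 (30.8%), with 8 at F13a1 and 4 at Csf3r, the receptor of granulocyte colony-stimulating factor. None of these lists had an LT-HSC-only region. By the gene test, 5 of 7, 4 of 5 and 12 of 13 tested genes were called higher in MPPs in these lists, and 0 in LT-HSCs. The median difference in regions held was 3.55, 2.80 and 3.90 per tested gene, against 4 for the 5 tested of the 8 genes and 2.40 for all genes tested.

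Some marker lists of mature cells had MPP-only regions as well. For mature neutrophils and macrophages, 20 of 41 regions were MPP-only (48.8%), and libraries held 87.8% to 92.7% in MPPs and 7.32% to 39.02% in LT-HSCs. T cell markers had 10 of 26 MPP-only (38.5%), with 73.1% to 88.5% held in MPPs and 15.4% to 46.2% in LT-HSCs. B cell markers had 7 of 24 (29.2%), with 79.2% to 95.8% held in MPPs and 12.5% to 54.2% in LT-HSCs. The MPP-only share was 37.0% at the 8 genes and 17.3% over all analysed regions, so the T cell share was close to that of the 8 genes. Cd8a, Cd79a and Ly6g, which define T cells, B cells and neutrophils, had no analysed region. Mature erythroid markers had 1 of 25 MPP-only (4.0%), with 64.0% to 80.0% held in MPPs and 20.0% to 72.0% in LT-HSCs. Hba-a1 (alpha globin) had no analysed region. The part of such cells in the results on granule genes was not tested. MPP markers had 14 of 54 MPP-only regions (25.9%). LT-HSC markers had 6 of 93 (6.45%), with the 2 LT-HSC-only regions found in any list, at Mllt3 and Slamf1.

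The 5 genes whose share of regions held was most like that of the 8 genes together, among 2561 with 10 or more regions, were Pecam1, Rubcnl, Ola1, Cracdl and Rasgrp1. Their mean absolute difference over the 9 libraries was 2.83 to 3.19 percentage points.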

How the data were processed

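The authors deposited 1 ATAC-seq peak list per library, on mm10 and called with MACS2 2.1.1, per the submitters' processing notes. Tools named there without a role are HOMER 4.10.3, edgeR 3.20.9, DiffBind 2.6.6, SAMtools 0.1.18, Bowtie2, cutadapt 1.7 and FastQC. The deposited values per peak are a fold enrichment (a ratio), −log10 p and q-values, a display score and positions. The sources used here do not give read numbers per library, the shift for the Tn5 cut or the removal of duplicates.

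From these files, 540767 peaks on chromosomes 1 to 19 were merged at 1 bp of overlap into 117465 regions, and the 95786 held by 2 or more libraries were analysed (Python 3.11.15, NumPy 2.4.6, SciPy 1.17.1, pandas 2.3.3). Genes, start sites and promoters are those of RefSeq on GRCm38.p6, and all 8 genes matched. Another 8 regions of these genes were held by 1 library and left out. Presence was tested by Fisher's exact test for cell type (52020 regions) and, for genotype, by an exact test stratified by cell type, and gene counts by exact permutation, each with Benjamini-Hochberg adjustment over all features tested. Shares and ranks were given no test. Ranks follow −log10 q, with ties by fold enrichment.

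Regions with coordinates are, per gene, the one held by most libraries, up to 2 MPP-only ones of best rank, and the start-site regions, which were added later. The members and lists were chosen with earlier results of these data known. Lists of LT-HSC, MPP, T cell, B cell, mature neutrophil and macrophage, and mature erythroid markers, and of azurophil, later granule and early myeloid genes, were described by counts, and 1 gene of the last list is not reported by name here. Alternatives were merging at 50 bp, −log10 q of at least 5, lists of equal length, regions held by 1 library, assignment within 50 kb, each library left out, and pairing by replicate number.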

Additional observations from a re-analysis of the deposited data

Results flagged for a closer look

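The number of granule and priming regions held in MPPs was 48 in MPP KO 1, apart from 51 in each of the other 3 MPP libraries. The Ltf regions held were 7 in MPP WT 1, against 6 in the other MPP libraries, and 1 in LT-HSC KO 1, against 2 in the other LT-HSC libraries. Ms4a3 had 1 region held in LT-HSC KO 4 and 0 in the other LT-HSC libraries. Each is the 1 library whose count differs from an otherwise equal group, so a difference of 1 region is enough to set it apart. By the 95% criterion of Dixon used here, chance sets a sample apart in about 1 in 20 groups of continuous values. That rate does not hold for tied counts such as these.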

How the results depend on the processing

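Cutting the lists to equal length moved most results. Member regions called higher in MPPs numbered 6 in place of 20 (2854 in place of 16604 over all regions), member genes called 0 in place of 4 (1 member gene tested, and 0% of all genes called, so the member count is fixed), and start windows held by MPPs alone 1 in place of 4. The difference in share held between MPPs and LT-HSCs was 36.7 points. Of 14 member regions held by all 4 MPP libraries, 2 ranked lower and 5 higher in both MPP KO libraries. Shares over all start windows and all ranked regions were not computed for the cut lists. Fewer regions are tested in the shorter lists. At a −log10 q of at least 5 the share in MPPs differed by -6.73 points (KO minus WT). Merging at 50 bp, regions held by 1 library and assignment within 50 kb moved none of these results past their limits.

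Leaving out each library in turn gave 20 to 26 member regions called. Without an MPP library these were 20 or 21 of 28 or 29 tested, against 50.6% to 54.2% of all regions tested, and without an LT-HSC library 20 of 20 or 26 of 26, against 79.3% to 89.5%, a smaller contrast than that over all libraries. There were 0 to 4 genes called, 4 to 5 start windows, and a share difference of 63.0 to 73.6 points. The difference KO minus WT was -6.00 to 0 points in MPPs and -13.2 to 7.41 points in LT-HSCs. Regions ranked lower in MPP KO numbered 13 to 21 and higher 13 to 20, both highest without MPP KO 1, where 1 KO library is left to compare. They were among 46 or 47 member regions held by all MPP libraries left. Shares over all start windows and all ranked regions were not computed with a library left out, so these counts have no background. No called result changed direction. For single genes of the permutation test, 29 values under an alternative stayed on the same side of the threshold and 33 were no longer past it.

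With the replicate block, which pairs libraries by their number, the share difference was 71.6 points between cell types, and KO minus WT was -2.78 points in MPPs and -18.5 points in LT-HSCs, the last from 1 pair. No pairing by number was seen among MPP libraries, where the correlation of their rank deviations was -0.0116 over 64003 regions. A single correlation cannot exclude that libraries with the same number were prepared together. LT-HSC libraries were not compared in this way. No blocked count of calls was possible with so few pairs. Depth is unknown, so a missing peak shows only that none was called.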

Other observations

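Peaks held by 1 library were outside every comparison. At the 8 genes there were 8 of them, 4 in LT-HSC KO 4 and 1 in each of the 4 MPP libraries.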
